A study of Mus musculus with 8 samples.

Results

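The interferon-stimulated genes examined here are 44 antiviral and antigen-processing genes listed by their gene symbols, among them the Ifit, Oas, Mx, Gbp and Ifitm families. The symbols were not picked by a rule on measured values, but earlier results of these data were known when they were chosen. A probe could be placed on the arrays for 34 of the 44 genes, out of 15095 named genes and 21776 gene probes in all. Oas1b, Oas1g, Oas2, Oas3, Oasl1, Bst2, Ifi44, Ddx58, Xaf1 and Psme2 were not analysed here. The mouse T-cell line CTL-EN depends on added growth factor and here carried the human common beta chain of the GM-CSF receptor, either as wild type or with the Ser585Gly change. At 0 h both populations had spent 12 h without factor in RPMI medium with 0.5% CS, and at 12 h they had then spent 12 h with human GM-CSF at 50 ng/mL. Total RNA was compared on 8 spotted oligonucleotide arrays with 2 colours that form a square with 4 edges: 12 h against 0 h in wild type, 12 h against 0 h in Ser585Gly, Ser585Gly against wild type at 0 h, and the same at 12 h. Each edge had 2 arrays of opposite dye orientation, where replicate 1 had the Ser585Gly or the 12 h RNA in Cy5. The labels name no separate cultures, clones or pools, and do not say what drives the receptor chain, so p-values measure the spread between hybridisations and the 2 populations may differ in more than the 1 residue. No array held cells kept for the second 12 h without GM-CSF, so GM-CSF and time in culture cannot be told apart.

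Type I interferons bind the receptor pair Ifnar1 and Ifnar2, whose kinases Jak1 and Tyk2 phosphorylate STAT factors. With Irf9 these form a complex, ISGF3, that binds a promoter element called the ISRE, while interferon gamma acts through a GAS element. The induced genes block viral entry, degrade or sense foreign RNA, restrict vacuolar pathogens and load peptides on MHC class I. Irf7, itself induced, amplifies interferon production. GM-CSF signals through Jak2 and Stat5, and Ser585 of the common beta chain is a phosphoserine that binds 14-3-3 proteins. The comparisons asked how the antiviral genes stood before and after GM-CSF, and whether Ser585 mattered for them.

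The element that names this gene class is shown first, since the results concern genes that carry it and passed in no comparison as well as genes that carry it and did pass. RefSeq promoter windows (GRCm38.p6, 250 bases before to 50 after the start) were held for 25 of the 34 genes. The letters searched were TTTC, any 2 bases and TTTC on either strand, called the ISRE core here, and TTC, any 3 bases and GAA, called the GAS core, which reads the same on both strands. Of the 25 windows, 15 (60.0%) held the first and 9 (36.0%) the second, against 3.99% and 9.55% of 27025 genes with a window. Stretches of 100 bases upstream of the start are printed for 4 genes picked after the values were seen: Isg15 and Ifit1, classic targets that passed in no comparison, and Igtp and Trim30a, which did pass. Capitals mark matches to either core.
Isg15 (chr4:156200836-156200935, minus strand): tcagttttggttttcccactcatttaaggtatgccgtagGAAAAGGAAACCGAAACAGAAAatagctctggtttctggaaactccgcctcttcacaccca
Ifit1 (chr19:34640750-34640849, plus strand): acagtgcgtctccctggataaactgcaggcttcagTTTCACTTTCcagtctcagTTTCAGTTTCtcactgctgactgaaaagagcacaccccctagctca
Igtp (chr11:58199456-58199555, plus strand): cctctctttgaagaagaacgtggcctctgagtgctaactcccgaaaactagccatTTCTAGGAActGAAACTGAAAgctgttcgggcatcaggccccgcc
Trim30a (chr7:104465194-104465293, minus strand): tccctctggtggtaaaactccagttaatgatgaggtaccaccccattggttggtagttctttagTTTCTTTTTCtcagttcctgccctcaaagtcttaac
The Isg15 stretch held 3 overlapping ISRE-core matches that begin 78 to 66 bases before the start, and the Ifit1 stretch 2, at 104 and 85 bases. Igtp had a GAS core at 45 bases and an ISRE core at 34 bases before the start, and Trim30a had 1 ISRE core at 36 bases. Among genes that passed the test in any comparison, 3 of 6 windows held the ISRE core, and among genes that passed in none, 12 of 19 did. A match is a run of letters in this window and was not tested as a binding site.

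All values below are log2 ratios of the deposited scanner intensities after normexp correction and loess. A fitted value comes with its standard error (SE) from 1 limma model over all 8 arrays, and the threshold is a Benjamini-Hochberg adjusted p under 0.05 over all 21776 probes. The deposited probe names follow another print order than the spots, so the name of each gene rests on a recovered order. In the recovered order wells named empty fell to a median brightness percentile of 1.33, against 47.2 in the deposited order. Dye-swap arrays turned to 1 direction correlated across probes at 0.515 and 0.509 for the time edges, but at 0.124 for the mutation at 0 h and 0.219 at 12 h. Replicate 1 of Ser585Gly against wild type at 0 h stood apart from the other arrays. Its log2 ratios had an SD of 0.541 over all probes, against 0.296 to 0.365 on the other 7, and 12 of the 34 genes were below -0.5 on it, against 2 on its dye-swap partner. Ifit2 (-1.81 and -0.25), Samhd1 (-1.22 and 0.13), Oasl2 (-1.20 and -0.03) and Iigp1 (-1.19 and -0.06) are examples of genes that were low on that array and near 0 on its partner. Results are therefore also given without that array.

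The interferon-stimulated genes were measurable in these cells, and 7 of the 34 passed the threshold in some comparison. All 34 had a mean brightness above the 95th percentile of empty wells, and 31 had all 16 channel readings above it, while Rsad2 and Gbp2 had 13 and Gbp3 had 10. That limit is a low one, since 97.5% of all probes exceeded it in the mean. Ifitm1 was near the top of the scanner range on 3 arrays. Over the 4 comparisons and the difference between the time effects, 7 genes passed the threshold in at least 1 comparison, with 9 calls in all. The share of all probes that passed in at least 1 was not counted. In single comparisons that share was 9.46% and 10.5% with time, 4.07% and 1.72% between the populations, and 0.0551% for the difference. The 95% interval of the fitted log2 ratio lay within a 2-fold change either way for 33 genes with time in wild type, for 31 with time in Ser585Gly, and between the populations for 32 at 0 h and 33 at 12 h. These shares (97.1%, 91.2%, 94.1% and 97.1%) were near those of all probes (95.4%, 95.2%, 95% and 97.4%). The median log2 ratio of the 34 genes was -0.10, 0.07, -0.10 and 0.06 in that order, against -0.01, 0.01, 0.00 and -0.01 for all probes.

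**Figure D1:**
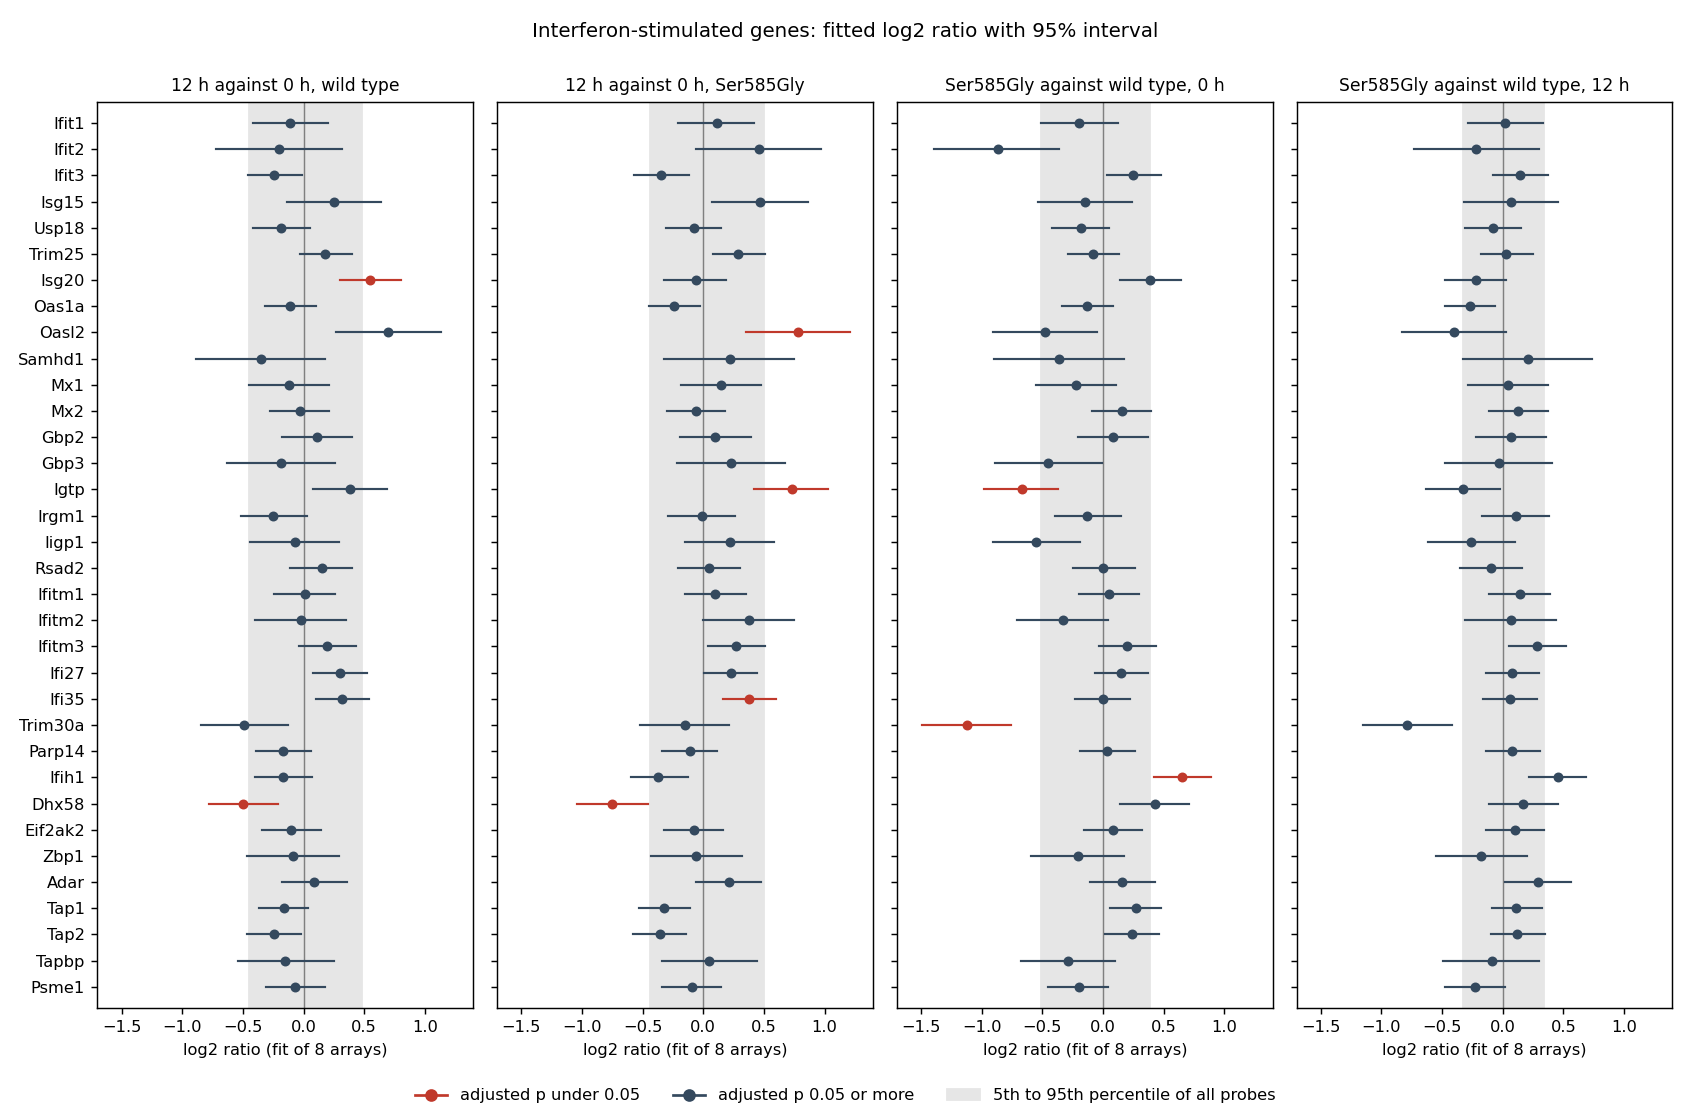
Fitted log2 ratio (points) with its 95% interval (lines) for the 34 interferon-stimulated genes in the 4 comparisons, with the 5th to 95th percentile of all probes in grey and genes with an adjusted p under 0.05 in red. With time the highest fitted values belong to Oasl2 (0.70 and 0.78) and the lowest to Dhx58 (-0.50 and -0.75), and Trim30a at 0 h (-1.12) is the value farthest from 0.

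In cells with the wild-type chain, 1 of the 34 genes rose by 12 h and 1 fell, while 9.46% of all probes passed in that comparison (5.43% higher and 4.03% lower). Isg20, an exonuclease that degrades single-stranded RNA, had log2 ratios of 0.56 and 0.62 on the direct arrays and rose by 0.55 ± 0.11 (adjusted p = 0.0182, limma), or 1.47-fold. Dhx58, which encodes Lgp2, the RIG-I-like receptor without signalling domains, had -0.43 and -0.42 and fell by 0.50 ± 0.13 (adjusted p = 0.0441). For both genes the 2 dye orientations gave almost the same value. Oasl2, an oligoadenylate synthetase-like gene, had a higher estimate than Isg20 (0.70 ± 0.19, arrays 0.63 and 1.05) with an adjusted p of 0.0524. Averaged as dye-swap pairs, which counts each edge once, 0 of the 34 genes passed and 4.94% of all probes did. In that fit Isg20 had an adjusted p of 0.0542 and Dhx58 of 0.0815. Without the array that stood apart, 5 of 34 passed, beside 15.2% of all probes: Isg20 (0.60), Oasl2 (0.83) and Isg15 (0.37) higher, Dhx58 (-0.45) and Trim30a (-0.40) lower. In a fit of the log2 ratios that the authors deposited, 9 of 34 passed, beside 19.3% of all probes. The Isg20 call held in 5 of the 8 fits that left out an array and was lost without either direct array (adjusted p = 0.149 and 0.154) or without the first array of the Ser585Gly time edge (adjusted p = 0.0598), while the Dhx58 call held in 1 of the 8.

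In Ser585Gly cells, 3 of the 34 genes rose by 12 h and 1 fell, beside 10.5% of all probes (5.74% higher and 4.72% lower). Oasl2 had 0.67 and 0.62 on the direct arrays and rose by 0.78 ± 0.19 (adjusted p = 0.0336), or 1.72-fold. Igtp, an immunity-related GTPase that acts at pathogen vacuoles, had 0.81 and 0.55 and rose by 0.73 ± 0.13 (adjusted p = 0.0115). Ifi35, an interferon-induced leucine zipper protein, had 0.24 and 0.55 and rose by 0.38 ± 0.10 (adjusted p = 0.0411). All these values were positive on the wild-type time arrays too: Igtp had 0.60 and 0.26 there, and Ifi35 had 0.25 and 0.38. Dhx58 had -0.61 and -1.03 and fell by 0.75 ± 0.13 (adjusted p = 0.00815), or 1.68-fold. Oasl2, Igtp and Dhx58 passed with dye-swap pairs averaged (adjusted p = 0.0381, 0.0251 and 0.0264), beside 6.22% of all probes, and Ifi35 did not (adjusted p = 0.115). Leaving out single arrays kept Dhx58 and Igtp in 6 of 8 fits each, Oasl2 in 3 and Ifi35 in 1. For Dhx58 and Igtp the fits that lost the call were those without replicate 1 or 2 of this edge. Without the array that stood apart, 9 of 34 passed, beside 15.7% of all probes, and Isg15 (0.35), Ifit3 (-0.32), Ifih1 (-0.33), Tap1 (-0.30) and Tap2 (-0.34) joined the 4. In the fit of the deposited log2 ratios, 14 of 34 passed, with 8 higher and 6 lower, beside 19.6% of all probes.

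The change with time was not shown to differ between the populations for any of the 34 genes. With limma 0 passed for the difference between the time effects, 2 had an unadjusted p under 0.05, and 0.0551% of all probes passed. Isg20 had the largest negative difference, Ser585Gly minus wild type, at -0.62 ± 0.13 (95% interval -0.91 to -0.33, adjusted p = 0.353). Its arrays showed 0.56 and 0.62 in wild type and -0.08 and -0.13 in Ser585Gly. The same difference passed with print-tip loess (-0.73, adjusted p = 0.027) and in the fit of the deposited log2 ratios (-0.64, adjusted p = 0.018), beside 0.225% and 0.416% of all probes. Ifit2 had the largest positive difference (0.66 ± 0.26, adjusted p = 0.694), which was 0.33 without the array that stood apart.

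**Figure D2:**
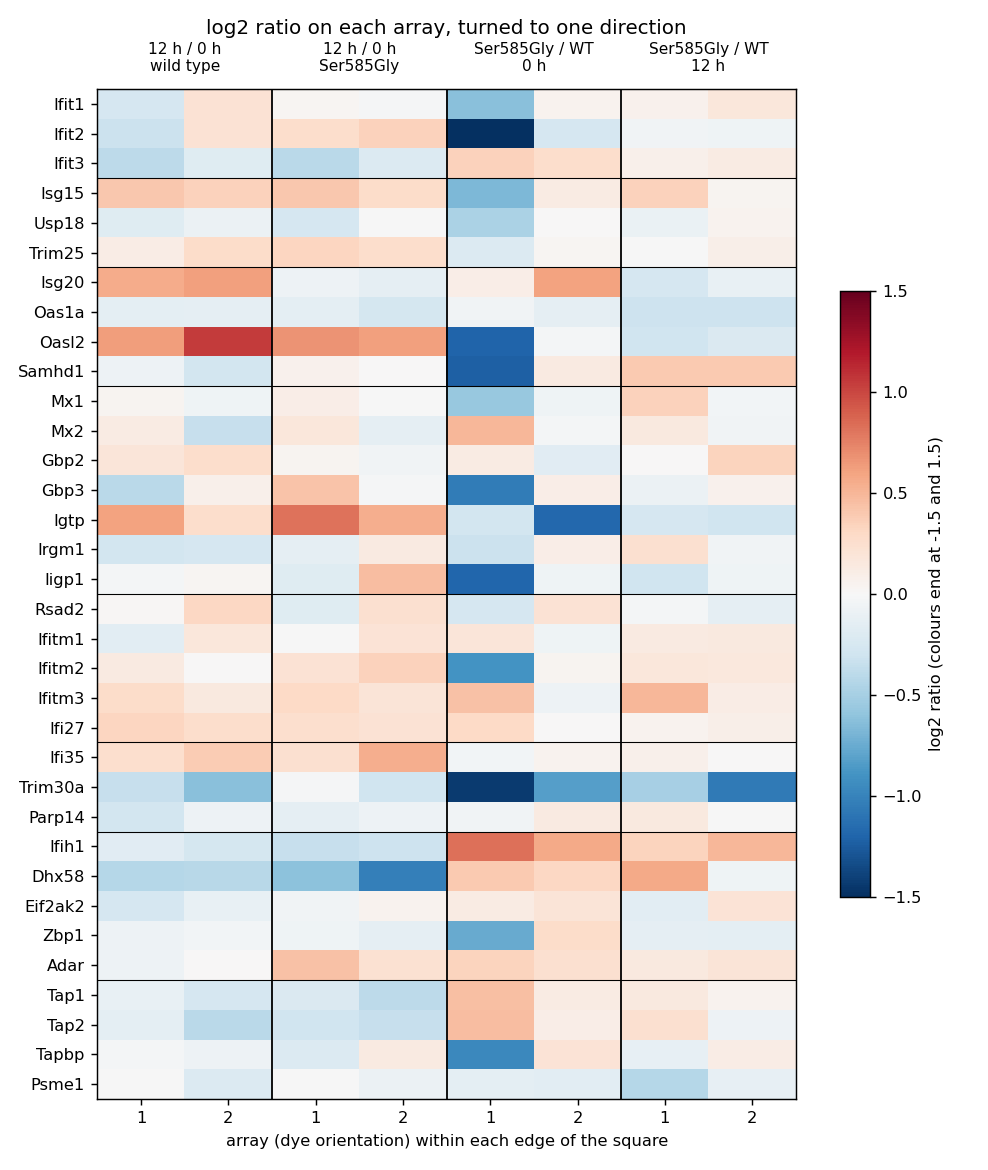
log2 ratio of the 34 genes (rows, by role) on each of the 8 arrays (columns), turned so that red is higher at 12 h or in Ser585Gly, with colours ending at -1.5 and 1.5. Replicate 1 of Ser585Gly against wild type at 0 h carries most of the dark blue cells, which its partner does not repeat except for Trim30a.

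Between the populations at 0 h, after factor withdrawal, 2 of the 34 genes were lower in Ser585Gly and 1 was higher, beside 4.07% of all probes (2.0% lower and 2.07% higher). Trim30a, which in mouse restrains Toll-like receptor signalling to NF-kB, had -1.43 and -0.83 on the direct arrays and was lower by 1.12 ± 0.16 (fitted -1.12, 95% interval -1.49 to -0.76, adjusted p = 0.00985), or 2.18-fold. It was negative on all 4 arrays that compare the populations, at -0.50 and -1.06 at 12 h. It passed in all 8 fits without 1 array, with adjusted p between 0.0203 and 0.0395, and with dye-swap pairs averaged (adjusted p = 0.0155), where it was the only 1 of the 34 to pass beside 1.33% of all probes. Trim30 has close paralogs, and which of them the probe also binds was not tested. Igtp had -0.27 and -1.18, which differ widely, and was lower (-0.67 ± 0.13, adjusted p = 0.0335). Ifih1, which encodes the double-stranded RNA sensor Mda5, had 0.83 and 0.57 and was higher by 0.65 ± 0.10 (adjusted p = 0.0153). With dye-swap pairs averaged, Igtp (adjusted p = 0.0604) and Ifih1 (adjusted p = 0.0614) missed the threshold. In the 8 fits without 1 array, the Igtp call held in 2 and the Ifih1 call in 5. The Igtp call was lost without replicate 2 of this edge, the array with -1.18. Without the array that stood apart, Igtp (-0.83) and Trim30a (-0.84) passed, beside 1.49% of all probes, and Ifih1 (0.54) had an adjusted p of 0.0615. The change with time in Ser585Gly and the comparison at 0 h share the Ser585Gly RNA of 0 h, so the values of Igtp in both are not independent. Of the 34 genes, 16 had opposite signs on the 2 dye orientations of this edge and 14 differed by over 0.5 between them. On each of the other 3 edges 1 or 2 genes differed by that much.

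After 12 h with GM-CSF, 0 of the 34 genes passed between the populations with limma, 6 had an unadjusted p under 0.05, and 1.72% of all probes passed. Trim30a had the largest estimate (-0.79 ± 0.16, adjusted p = 0.0532), and its interval ran from -1.15 to -0.42. Ifih1 came next among the positive ones (0.46 ± 0.10, adjusted p = 0.0815), with 0.33 and 0.50 on the direct arrays. Igtp stood at -0.33 ± 0.13, with -0.25 and -0.30 on its arrays. Without the array that stood apart, Trim30a (-0.69) and Ifih1 (0.42) passed here, beside 2.88% of all probes. In the fit of the log2 ratios that the authors deposited, 5 of the 34 passed and 10.2% of all probes did: Ifih1 (0.34) and Samhd1 (0.45) higher, and Igtp (-0.46), Oasl2 (-0.31) and Trim30a (-0.81) lower. The sign of Trim30a, Ifih1 and Igtp was thus the same at 0 h and 12 h, and their time effects in the populations were not shown to differ.

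**Figure D3:**
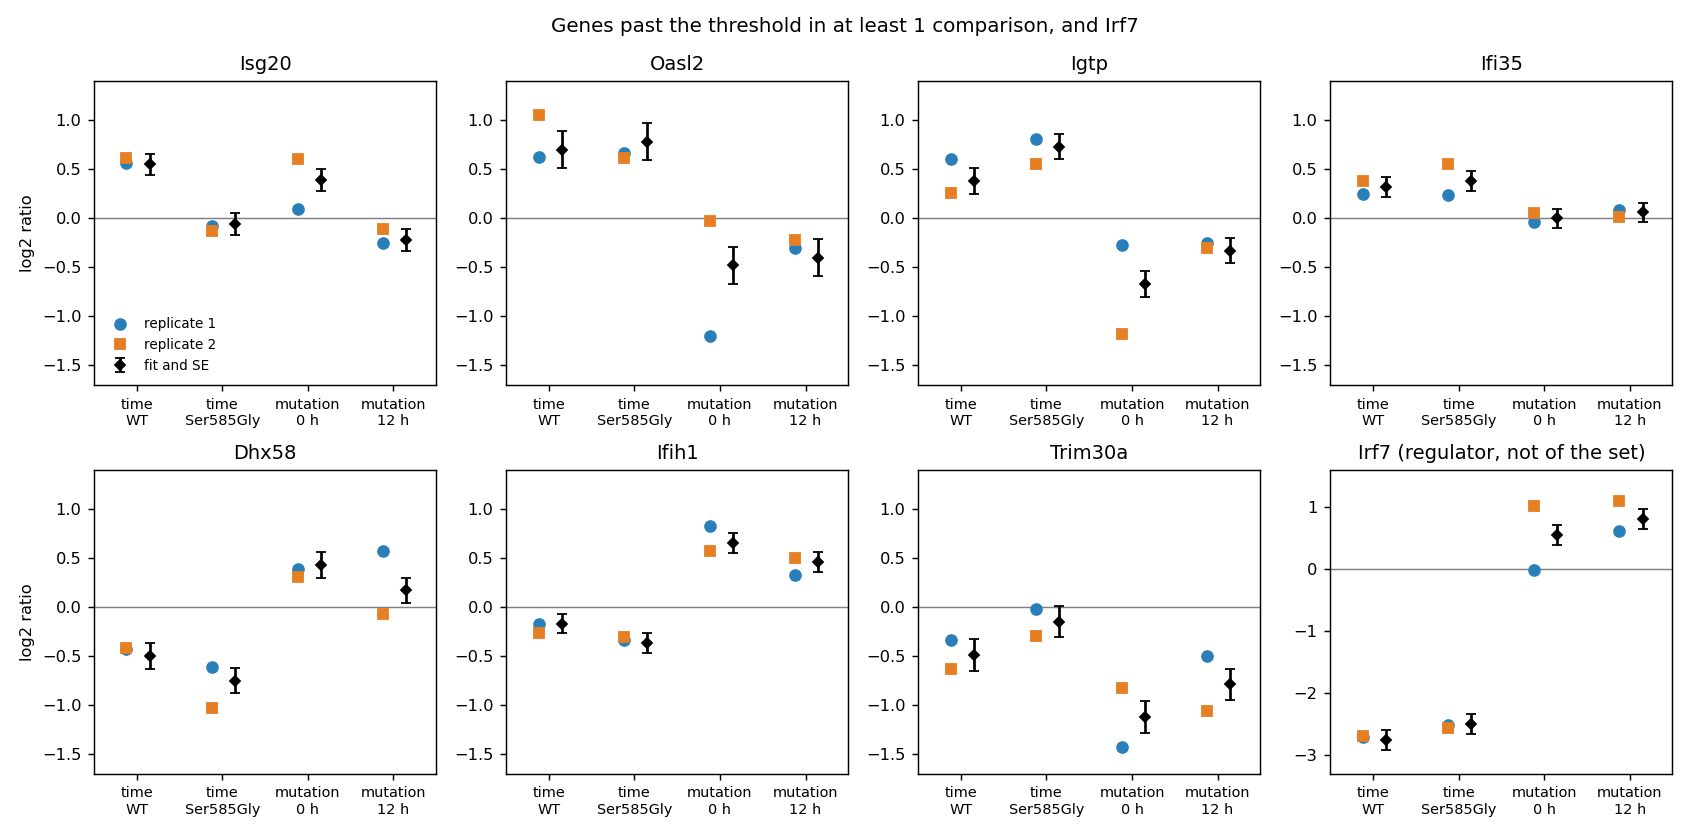
log2 ratio on the 2 dye orientations of each edge (circles and squares) and the fit with its SE (diamonds) for the 7 genes past the threshold in at least 1 comparison and for Irf7. Trim30a is below 0 on all 8 arrays, and the Irf7 axis spans a wider range than the others.

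Ifit1, Ifit2 and Ifit3, which are often used to read an interferon response, passed in none of the comparisons of the fit of 8 arrays. Ifit1, which binds viral RNA caps, had -0.25 and 0.22 with time in wild type, 0.03 and -0.02 in Ser585Gly, -0.63 and 0.05 for the mutation at 0 h, and 0.07 and 0.17 at 12 h. Both arrays had the same sign at the last of these edges only, and the 95% interval of its time effect was -0.42 to 0.20 in wild type. Ifit2 had -0.32 and 0.22 with time in wild type and 0.26 and 0.35 in Ser585Gly. At 0 h its estimate for the mutation was -0.87 ± 0.23 (adjusted p = 0.07), which became -0.38 without the array that stood apart. That difference passed with print-tip loess (-0.50), in the fit of the deposited log2 ratios (-0.34) and with a random block by edge (-0.87). Ifit3 was below 0 on all 4 time arrays, from -0.41 to -0.18, and above 0 on all 4 arrays between the populations, from 0.08 to 0.34. Its estimates were -0.24 in wild type and -0.35 in Ser585Gly with time (adjusted p = 0.181 and 0.0597). In the fit of the deposited log2 ratios, with time in Ser585Gly, Ifit2 (0.27) and Ifit3 (-0.25) passed and Ifit1 did not.

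The ubiquitin-like modifier Isg15 was above 0 on all 4 time arrays, at 0.40 and 0.35 in wild type and 0.40 and 0.28 in Ser585Gly. The fitted values were 0.25 ± 0.17 and 0.47 ± 0.17 (adjusted p = 0.436 and 0.136), where the -0.67 of the array that stood apart widened the error. Without that array they were 0.37 ± 0.08 and 0.35 ± 0.08 (adjusted p = 0.0248 and 0.0313). Usp18, the protease that removes Isg15 from proteins, lay between -0.47 and 0.05 on all 8 arrays. Trim25, a ligase of RIG-I, had time estimates of 0.18 and 0.29. Isg15, Usp18 and Trim25 passed in 0 comparisons of the fit of 8 arrays.

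Among the synthetases and nucleases, Oas1a, which makes the oligoadenylate that activates RNase L, was below 0 on all 8 arrays, between -0.31 and -0.05. Its estimates were -0.11 and -0.24 with time and -0.13 and -0.27 for the mutation, and none passed. Oasl2, its relative, was positive on all 4 time arrays, so the 2 measured members of that family had opposite signs with time. Samhd1, a nucleotide hydrolase that starves reverse transcription, had 0.39 on both arrays between the populations at 12 h, with an estimate of 0.21 ± 0.23.

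Of the 7 GTPases, Igtp passed and the other 6 did not. Mx1, which blocks influenza virus in the mouse nucleus, had time values from -0.07 to 0.10, and Mx2 from -0.34 to 0.17. Irgm1, which regulates the other immunity-related GTPases, had -0.25 ± 0.12 with time in wild type and -0.01 in Ser585Gly. Iigp1 had -0.55 ± 0.16 for the mutation at 0 h (adjusted p = 0.0921), mostly from the array that stood apart. Gbp2 and Gbp3, guanylate-binding proteins that attack vacuoles, had fitted time values from -0.19 to 0.23, with several readings not above empty wells.

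The other RNA sensors and editors stayed near 0. Eif2ak2, the kinase PKR that halts translation on double-stranded RNA, had array values from -0.25 to 0.20, and its second probe had time estimates of -0.05 and 0.10, against -0.10 and -0.08 on the brightest probe. Adar, the RNA-editing enzyme, had 0.09 and 0.21 with time, and Zbp1, a sensor of Z-form nucleic acid, had -0.09 and -0.06. On the arrays between the populations Adar had 0.33 and 0.24 at 0 h and 0.15 and 0.19 at 12 h. Zbp1 had -0.76 and 0.28 at 0 h and -0.14 and -0.15 at 12 h. Ifih1, which was higher in Ser585Gly at 0 h, was below 0 on all 4 time arrays, from -0.34 to -0.17, as Dhx58 was. The transporter subunits Tap1 and Tap2 were also below 0 on all 4 time arrays. Tap2 had -0.24 in wild type and -0.36 in Ser585Gly (adjusted p = 0.174 and 0.0524), and Tap1 had -0.16 and -0.32 (adjusted p = 0.328 and 0.0634). The membrane factors that block viral fusion, Ifitm1, Ifitm2 and Ifitm3, had time estimates from -0.02 to 0.38, and Ifi27 had 0.30 and 0.23, all without passing.

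The regulators of these genes did not move in the same way. Irf7 fell by 2.75 ± 0.16 in wild type and by 2.50 ± 0.16 in Ser585Gly (adjusted p = 0.00012 and 0.000189), with -2.70, -2.69, -2.51 and -2.57 on the 4 arrays. Those values stood far outside the 34 genes, where the lowest time estimate was -0.75. Irf9, the DNA-binding part of ISGF3, had -0.33 and -0.21 and passed in neither. Stat2, a STAT partner of Irf9, had 2 of 16 readings above empty wells, so it gave no usable value. Of 8 interferon regulatory factors, 1 fell with time in wild type, and 2 rose and 2 fell in Ser585Gly, beside 9.46% and 10.5% of all probes. Irf5, among the 8, had 1 of 16 readings above empty wells. Irf8 was lower in Ser585Gly by 2.28 ± 0.09 at 0 h (fitted -2.28) and by 1.47 at 12 h (fitted -1.47), and Irf4 was higher there at 12 h (1.16 ± 0.14).

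Of 13 receptor, kinase, STAT and inhibitor genes, 0 were higher and 3 lower in Ser585Gly at 0 h, and 0 and 2 at 12 h, beside 4.07% and 1.72% of all probes. Ifnar1, the interferon alpha receptor subunit, stood at -0.61 ± 0.11 and -0.72 ± 0.11 there (adjusted p = 0.0279 and 0.0204), with -0.70, -0.40, -0.72 and -0.84 on the arrays. Its partner Ifnar2 stood at 0.10 and 0.00 and did not pass. Ifngr1, the ligand-binding chain for interferon gamma, passed in all 4 comparisons, at -0.47 and -0.53 with time and -0.48 and -0.55 for the mutation. With dye-swap pairs averaged, neither Ifnar1 (adjusted p = 0.0714 and 0.0797) nor Ifngr1 (adjusted p from 0.0532 to 0.142) passed in any of these. In the 8 fits without 1 array, the Ifnar1 call held in 0 at 0 h and in 4 at 12 h. The Ifngr1 call held in 2 with time in wild type, in 6 with time in Ser585Gly, and in 1 for the mutation at each time. Of 11 interferon genes, 1 passed with time in wild type and 2 in Ser585Gly, all higher, beside 9.46% and 10.5% of all probes. Between the populations 0 of the 11 passed, beside 4.07% and 1.72%. Those that passed with time were Ifna6 (0.42 and 0.83) and, in Ser585Gly, Ifna1 (0.40). Ifna6 had 8 of 16 readings above empty wells, and alpha interferon genes are near-identical copies that a probe cannot be assumed to separate. Ifnb1 and Ifng had time estimates from 0.04 to 0.30 and did not pass.

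In a further list of 29 measured interferon-induced genes outside the 34, 2 were higher and 2 lower with time in wild type (13.8%, beside 9.46% of all probes), and 2 and 4 in Ser585Gly (20.7% beside 10.5%). Between the populations 2 were higher and 3 lower at 0 h (17.2% beside 4.07%), and 1 and 0 at 12 h (3.45% beside 1.72%). The difference between this list and the 34 genes was not tested. Because the list was chosen with earlier results of these data known, its shares cannot be read as an excess over all probes. Sp100, a nuclear body protein, fell by 1.91 ± 0.15 and 1.26 ± 0.15 with time on its brightest probe and by 1.05 ± 0.12 and 0.78 ± 0.12 on its second probe. At 0 h it was lower in Ser585Gly on the brightest probe (-0.73 ± 0.15, adjusted p = 0.0346, limma). That call held in 1 of the 8 fits without 1 array, and the second probe had -0.30 (limma adjusted p = 0.182). Ifi27l2a, a mitochondrial interferon-induced protein, fell by 1.21 ± 0.12 and 0.56 ± 0.12. Its call with time in Ser585Gly was lost with dye-swap pairs averaged (adjusted p = 0.0513) and held in 3 of the 8 fits without 1 array. Between the populations at 12 h, Ifi27l2a was the gene of this list that passed. It was higher in Ser585Gly by 1.04 ± 0.12 (adjusted p = 0.00532, limma), with 1.14 and 0.82 on the direct arrays. Irgm2, which lies next to Igtp in the RefSeq gene order and held both cores in its window, had the same signs as Igtp. It rose by 0.57 ± 0.12 and 0.95 ± 0.12 with time and was lower in Ser585Gly at 0 h (-0.79 ± 0.12, adjusted p = 0.0117). Its arrays showed 0.51 and 0.55, 0.92 and 1.07, and -1.01 and -0.50 in that order. The wild-type call was lost with dye-swap pairs averaged (adjusted p = 0.0506) and held in 5 of the 8 fits without 1 array. Of 12 genes of MHC class I and the immunoproteasome, 0 passed in each comparison with limma, beside 9.46%, 10.5%, 4.07% and 1.72% of all probes. A list of 12 genes is too small for 0 to be read as below those shares. At an unadjusted p under 0.05 there were 1, 0, 4 and 1, and the share of all probes at that limit was not counted. Of 10 sensing genes, 1 was higher and 1 lower with time in wild type, beside 9.46% of all probes, and 0 passed in Ser585Gly, beside 10.5%. Those in wild type were Traf6 (0.69) and Ikbke (-0.54), but a second probe of Traf6 had 0.13 and did not pass (limma adjusted p = 0.617). Between the populations 1 passed at each time, beside 4.07% and 1.72%: Sting1, the adaptor for cyclic dinucleotides, which was higher in Ser585Gly at 0 h and 12 h (0.57 and 0.48).

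The T-cell label could be checked against 13 markers, of which 12 were above empty wells in the mean and Cd4 was not. With time 1 of the 13 rose and 2 fell in each population (23.1% in both, beside 9.46% and 10.5% of all probes). Cd3e and Cd3g, chains of the T-cell receptor complex, fell by 0.84 and 0.71 in wild type and by 0.90 and 0.72 in Ser585Gly, and Lat, an adaptor of that receptor, rose by 0.49 in both. Markers of other lineages exceeded the same low limit, except Spib, so presence separates no lineage here. Between the populations, beside 4.07% and 1.72% of all probes, the myeloid markers showed 1 lower and 1 higher of 10 at each time, which were Ctsg (-2.07 and -2.34) and Fcgr3 (0.87 and 0.85). Of 4 plasmacytoid dendritic markers 1 was lower at each time, Ly6d (-1.11 and -0.92), and 0 markers of the T, B, mast, erythroid and fibroblast lists passed there with limma, though each list but 1 had members at an unadjusted p under 0.05 at 0 h. The part of these differences between the populations in the values of Trim30a, Igtp and Ifih1 was not tested.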

How the data were processed

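The authors deposited scanner files with foreground and background intensity for each dye per the file headers, and a table of log2 ratios of Cy5 over Cy3. Limma is named in the submitters' processing notes, with no version, and no other step behind these files is known here. Table rows were matched to spots by their 8 ratios (correlation 0.947 to 0.996 per array), and names were then moved from the deposited 48-pin to the recovered 24-pin order, which was chosen with the data in view. Of 21797 gene probes, 21776 were placed, and 89.5% had their spot as the nearest by values. For the 34 genes this held in 29. All gene probes were placed by the run of their neighbours in the probe numbers. For the exceptions, Ifit1, Ifit3, Oasl2, Iigp1 and Ifi35, the probe's own values did not give the same spot. Of these, Oasl2 and Ifi35 passed the threshold with time in Ser585Gly. On plates of these genes that could be compared (14 probes of 35), abundant genes were brighter than silent ones in over 0.6 of pairs on 9 of 9 plates, against 2 in the deposited order, where 4 were above 0.5. Of the placed probes 16642 had 1 symbol, mostly (15970) matched through the gene identifier, 137 had several and 4997 none.

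Intensity was corrected by normexp (offset 50), normalised by loess (span 0.3, control spots weighted 0) and fitted with limma 3.58.1 in R 4.3.3 with terms for mutation, time, interaction and dye, tested on simulated data. Two-sided tests had 4 residual degrees of freedom and 4.35 from the prior, and intervals cover 95%. A gene was read from its brightest probe. Arrays had a median intensity between 631 and 946 in Cy5 and between 795 and 1105 in Cy3, and the number of arrays limits the precision. Named were all genes past the threshold, a fixed set (Isg15, Ifit1, Ifit2, Ifit3, Mx1, Oas1a, Usp18, Eif2ak2, Stat2, Irf7, Irf9), their families, and up to 4 genes per pathway list. The genes and lists were chosen with earlier results of these data known. Alternatives were background correction, normalisation, the authors' log2 table, dye-swap pairs averaged or as a random block, other fits, probe choices, name order and single arrays left out. Sequences are from RefSeq.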

Additional observations from a re-analysis of the deposited data

How the results depend on the processing

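The number of the 34 genes past the threshold changed with the processing, here in the order time in wild type (2), time in Ser585Gly (4), mutation at 0 h (3), mutation at 12 h (0) and difference (0). It was 2, 7, 3, 1 and 0 with background subtraction, 1, 5, 3, 1 and 0 without background correction, 1, 3, 3, 0 and 0 with a normexp offset of 16, and 1, 3, 3, 1 and 0 with median centring. In the same order 9.76%, 11.3%, 5.31%, 2.17% and 0.0918% of all probes passed with background subtraction. Without background correction 8.59%, 10.1%, 4.5%, 1.94% and 0.0918% did. The shares were 8.65%, 9.4%, 3.46%, 1.5% and 0.0367% with the offset of 16. With median centring they were 7.0%, 8.28%, 2.51%, 1.28% and 0.0367%. Print-tip loess gave 9, 11, 5, 2 and 1 of the 34 genes, and scaled arrays 3, 6, 4, 2 and 0. With scaled arrays 12.1%, 12.0%, 4.35%, 3.38% and 0.00459% of all probes passed. The log2 ratios the authors deposited gave 9, 14, 5, 5 and 1 genes, beside 19.3%, 19.6%, 11.8%, 10.2% and 0.416% of all probes. Dye-swap pairs averaged gave 0, 3, 1, 0 and 0, a random block by edge 7, 12, 8, 2 and 0 (correlation -0.326 within pairs), and no dye term 1, 2, 2, 0 and 0. Without the dye term 6.76%, 7.71%, 2.34%, 1.29% and 0.0276% of all probes passed. Direct arrays only gave 0, 1, 1, 0 and 0, a trended prior 3, 7, 3, 1 and 0, bright probes only 3, 5, 3, 1 and 0, and probes averaged per gene 3, 8, 3, 1 and 0. Of all probes, 4.06%, 5.27%, 1.04%, 0.73% and 0.0% passed with direct arrays only. With the trended prior 11.1%, 12.0%, 5.87%, 2.48% and 0.0964% did. Of the bright probes, 10.1%, 11.2%, 4.49%, 1.93% and 0.0565% passed. Of the genes with probes averaged, 11.2%, 12.8%, 5.95%, 2.52% and 0.053% passed. Leaving out 1 array gave 0 to 5, 0 to 9, 1 to 3, 0 to 2 and 0 to 0. The share of all probes that passed moved too: over the 15 settings other than leaving out an array it ran from 4.06% to 19.3%, 5.27% to 19.8%, 1.04% to 15.5%, 0.716% to 10.2% and 0.0% to 0.416%. It was 18.7%, 19.7%, 9.38%, 4.56% and 0.225% with print-tip loess, 4.94%, 6.22%, 1.33%, 0.716% and 0.0% with pairs averaged, and 19.2%, 19.8%, 15.5%, 5.19% and 0.161% with the random block. The cause of these shifts was not tested. The median of the 34 genes stayed between -0.13 and 0.12. No paired analysis was possible because the labels give no replicate numbers that tie arrays across edges.

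With names in the deposited order, which reads other spots, the counts were 1, 1, 0, 0 and 0, beside 9.58%, 10.6%, 4.11%, 1.71% and 0.0551% of all probes. There the signs turned with time in wild type for Isg20 (-0.15), Dhx58 (0.05), Sp100 (0.06) and Ifngr1 (0.45), with time in Ser585Gly for Ifi35 (-0.19), Dhx58 (0.01), Igtp (-0.05), Irf7 (0.09) and Ifngr1 (0.52), for the mutation at 0 h for Ifih1 (-0.34), Igtp (0.14), Sp100 (0.11) and Ifnar1 (0.32), and at 12 h for Irf4 (-0.31), Ifi27l2a (-0.21) and Ifnar1 (0.28). In the other 14 settings, leaving-out aside, Trim30a at 0 h and Dhx58 with time in Ser585Gly passed in 14, Igtp with time in 13, Oasl2 with time and Ifih1 at 0 h in 12, Isg20 with time in wild type and Igtp at 0 h in 11, Ifi35 in 9, and Dhx58 with time in wild type in 8.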
